A study of Solanum lycopersicum with 2 samples.

Results

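The 7 genes described here belong to the abscisic acid and dehydration response of tomato (Solanum lycopersicum), and were taken from 24915 gene models listed in at least 1 of 2 leaf libraries. They were picked by identifier, and all 7 were listed in both libraries. They are NCED1 (Solyc07g056570.1), AREB1 (Solyc04g078840.2), the dehydrin TAS14 (Solyc02g084850.2) and 4 members of the ASR gene cluster on chromosome 4 (Solyc04g071580.2, Solyc04g071590.1, Solyc04g071610.2 and Solyc04g071620.2). The deposited files give identifiers, chromosomes and strands without names or positions, so the names come from the list of genes that was set for this description. Of the 41476 genes in a RefSeq table of the tomato assembly SLM_r2.1, 0 carry these identifiers. That table has 1 gene each under the symbols NCED1, AREB1 and TAS14, on chromosomes 7, 4 and 2, the chromosomes that the files give for the 3 identifiers. It also has 4 genes with ASR symbols, all on chromosome 4 with 1 other gene among them. Which ASR symbol belongs to which of the 4 identifiers was not settled, so the ASR genes are called by identifier.

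Both libraries came from young leaves, of several developmental stages, of the cultivar Moneymaker, and their comparison asks which transcripts differ in level after heat. The plants were 8 weeks old and had been raised in a glasshouse with 16 h days at 24°C and 8 h nights at 20°C. The control library is from plants without heat stress. The heat-stress library, referred to as leaves after heat stress, is from plants placed in a growth chamber at 120 μmol m-2 s-1, kept at 39°C for 1 h and then at 24°C for 1.5 h. There was 1 library per condition, and the number of plants behind each is not given in the labels. Nor do the labels say whether control plants were moved to the chamber, so effects of heat, of the move and of sampling time cannot be told apart. The assay was MACE (massive analysis of cDNA ends), in which each poly-A transcript gives 1 read from its 3' end. Levels are given as RPM, the reads of a model per 1000000 mapped reads, and need no correction for length, so levels of different genes can be set side by side as far as each model reaches the 3' end of its transcript. The control library had 11534512 mapped reads and the heat-stress library 13857252. No difference below has a replicate check, and no p-value was computed. The intervals are 95% intervals that cover counting error only.

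Abscisic acid is the hormone by which plants close their stomata and protect their cells when water is short. It is made from carotenoids, and NCED1 encodes the 9-cis-epoxycarotenoid dioxygenase that cleaves them, the step regarded as limiting the rate of synthesis. When the hormone binds its receptors, protein phosphatases are inhibited and protein kinases are released to activate bZIP transcription factors of the AREB/ABF group, to which AREB1 belongs. These factors bind abscisic acid response elements in promoters of genes such as those for dehydrins, hydrophilic proteins that accumulate in drying cells. TAS14 is a tomato dehydrin known to be induced by salt, drought and abscisic acid. ASR genes are named for abscisic acid, stress and ripening, which induce members of the family, and they encode small hydrophilic proteins.

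The synthesis gene and the transcription factor gene were at higher levels after heat stress and recovery, and the dehydrin gene and the 4 ASR genes were at lower levels. NCED1 stood at 3.33 times its control level and AREB1 at 1.47 times. TAS14 and Solyc04g071620, the most abundant ASR gene, were at 0.529 and 0.548 of their control levels. In whole leaves, fewer cells of a type and less RNA per cell cannot be told apart. Among the 7 counting intervals, that of Solyc04g071580 included a ratio of 1.

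**Figure D1:**
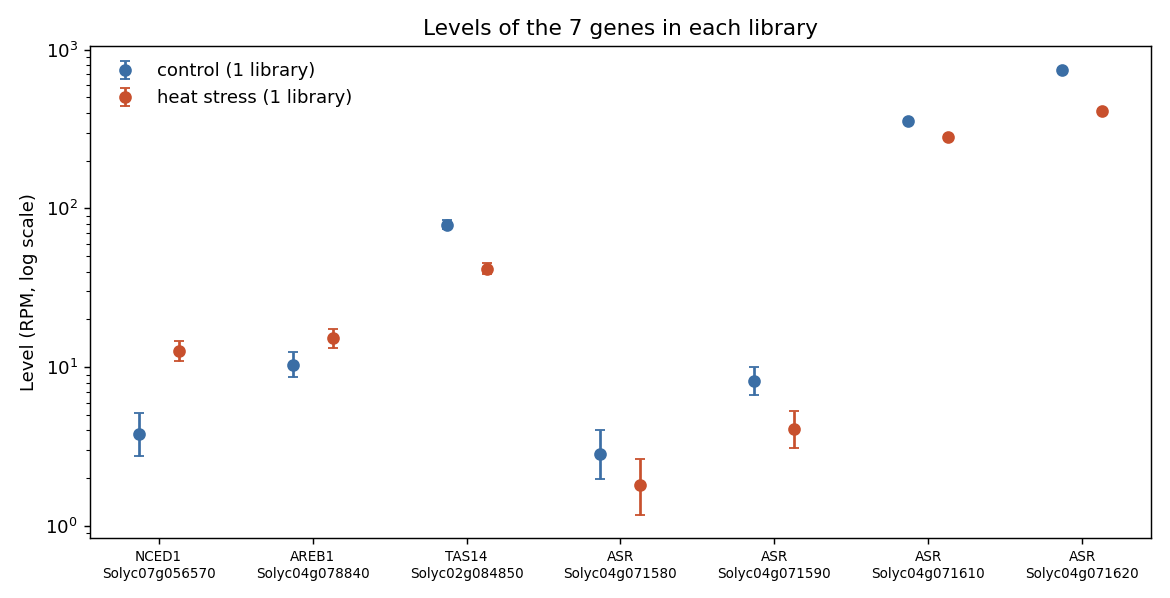
Level of each of the 7 genes in RPM on a log axis, in control leaves (blue) and the heat-stress library (orange), 1 library each; bars are 95% exact Poisson intervals and cover counting error only. NCED1 and AREB1 lie higher after heat stress, and the other 5 genes lie lower there.

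For hormone synthesis, NCED1 had 44 reads in control leaves and 176 after heat stress, which put its level at 3.81 RPM in control leaves (2.77 to 5.12) and 12.7 RPM after heat stress (10.9 to 14.7). The counting intervals of the libraries did not overlap, and the ratio of RPM was 3.33 (2.38 to 4.75). On the scale used to count differences, log2 of heat-stress RPM + 1 over control RPM + 1, the difference was 1.51. This scale understates the change of genes at low levels. Of the 11271 models that averaged at least 5 RPM over the libraries, 163 (1.45%) had a log2 ratio at least as high, a count that, like those below, includes the gene itself. When the models were divided by mean level into 10 classes of nearly equal size, 6 of the 1127 models in the class of NCED1, with means between 7.06 and 9.56 RPM, did. NCED1 was under 5 RPM in control leaves, so it entered this comparison through its level after heat stress. The gene moved from rank 11882 by level in control leaves to rank 8018 after heat stress.

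For the transcription factor, AREB1 had 120 reads in control leaves and 212 after heat stress. Its level was 10.4 RPM (8.63 to 12.4) in control leaves and 15.3 RPM (13.3 to 17.5) after heat stress. The ratio was 1.47 (1.17 to 1.86) and the log2 ratio 0.52. This was a smaller difference than that of NCED1. The ratio of NCED1 was 2.26 times that of AREB1 (1.50 to 3.46), a quotient in which the scaling of the libraries cancels. A log2 ratio at least as high was found in 1758 models, or 15.6% of those compared.

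For the dehydrin, TAS14 had 911 reads in control leaves and 579 after heat stress. Its level was 79.0 RPM (73.9 to 84.3) in control leaves and 41.8 RPM (38.4 to 45.3) after heat stress. In control leaves it stood at 1.89 times its level after heat stress (1.70 to 2.10), an interval that includes 2-fold. The log2 ratio was -0.90, the lowest of the 7 genes on that scale, and 261 models (2.32%) had one as low. Its direction was opposite to that of NCED1 and AREB1. The ratio of NCED1 was 6.29 times that of TAS14 (4.42 to 9.11), and the ratio of AREB1 was 2.78 times that of TAS14 (2.16 to 3.59).

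**Figure D2:**
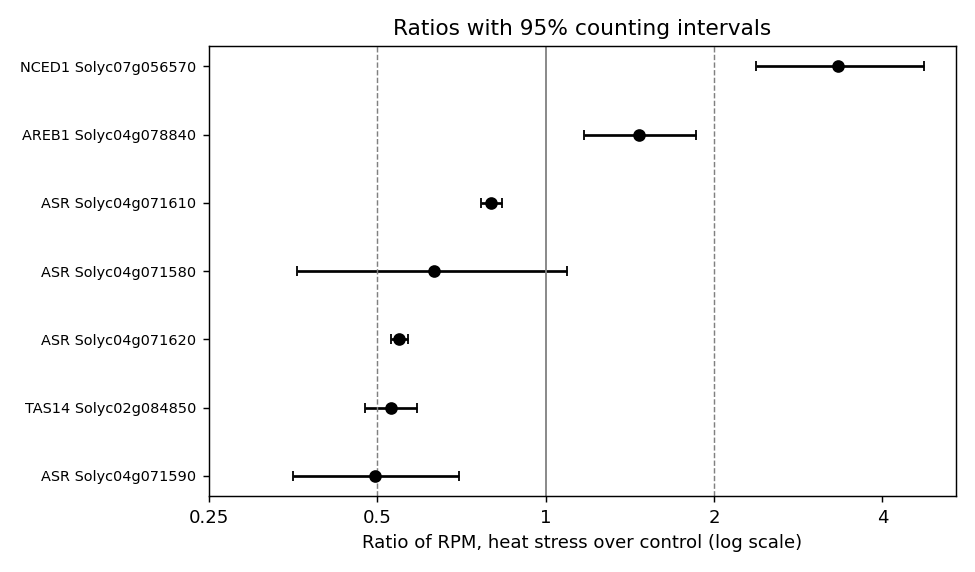
Ratio of RPM in the heat-stress library over the control library for the 7 genes on a log axis, with 95% conditional exact binomial intervals that cover counting error only; the solid line marks a ratio of 1 and the dashed lines 2-fold differences. NCED1 at 3.33 lies above the upper dashed line with its whole interval. TAS14, Solyc04g071590 and Solyc04g071620 lie near or at the lower one, and Solyc04g071580 lies at 0.632 with a wide interval that includes 1.

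The ASR genes included both the highest and the lowest levels of the 7. Solyc04g071620 had 746 RPM in control leaves (731 to 762) and 409 RPM after heat stress (398 to 420). It ranked 105 among all models in control leaves and 203 after heat stress. Its ratio was 0.548 (0.530 to 0.567), with a log2 ratio of -0.87, and 62 of the 1128 models in the most abundant class had one as low. Its 8609 reads in control leaves and 5666 after heat stress were not whole numbers, which in these files marks reads split among several places, and how many of them were split is not given.

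Solyc04g071610 had 354 RPM in control leaves (343 to 365) and 283 RPM after heat stress (274 to 292), from 4079 and 3920 whole reads. The library intervals did not overlap, and the ratio was 0.800 (0.765 to 0.836). The difference was smaller than that of its neighbour in the cluster. The ratio of Solyc04g071610 was 1.46 times that of Solyc04g071620 (1.38 to 1.54). Within the most abundant class, 314 of 1128 models had a log2 ratio as low as its -0.32.

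The remaining pair was weakly expressed. Solyc04g071590 had 8.25 RPM in control leaves (6.66 to 10.1) and 4.09 RPM after heat stress (3.12 to 5.33). Its ratio of RPM was 0.496 (0.353 to 0.701), past 2-fold, while its log2 ratio with the pseudocount of 1 RPM was -0.86, short of it. Its reads were fractional, 95.2 in control leaves and 56.7 after heat stress, so some were split among several places and its level is uncertain. Solyc04g071580 had 2.86 RPM in control leaves (1.97 to 4.02) and 1.81 RPM after heat stress (1.17 to 2.66), from 33.0 and 25.1 reads, also fractional. Its ratio of 0.632 (0.360 to 1.09) was not distinguishable from 1 at this depth, and with a mean of 2.34 RPM it did not enter the comparison with other models.

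Taken as a sum, the 4 ASR genes had 1111 RPM in control leaves and 698 RPM after heat stress, a ratio of 0.628 (0.611 to 0.645). Solyc04g071620 supplied 67.2% of this sum in control leaves (66.4 to 68.0) and 58.6% after heat stress (57.6 to 59.6). The share of Solyc04g071610 was 31.8% in control leaves (31.0 to 32.6) and 40.5% after heat stress (39.6 to 41.5). The cluster's share of mapped reads was lower after heat stress and was more evenly divided between its 2 abundant genes. The weak pair together supplied little: Solyc04g071580 was at 0.258% and 0.259% of the sum, and Solyc04g071590 at 0.743% and 0.586%.

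The order of the levels was much the same in both libraries except for NCED1. In the control library it ran from Solyc04g071620 through Solyc04g071610, TAS14, AREB1, Solyc04g071590 and NCED1 to Solyc04g071580. AREB1 and Solyc04g071590 were not distinguishable there, with a ratio of their levels of 1.26 (0.957 to 1.67), nor were NCED1 and Solyc04g071580, with 1.33 (0.830 to 2.16). In the heat-stress library NCED1 lay above Solyc04g071590, at 3.11 times its level (2.28 to 4.24). It was not distinguishable there from AREB1, whose level was 1.20 times that of NCED1 (0.982 to 1.48). In the control library Solyc04g071620 had 2.11 times the level of Solyc04g071610 (2.03 to 2.19), and after heat stress 1.45 times (1.39 to 1.51). TAS14 had 7.59 times the level of AREB1 in control leaves (6.27 to 9.26) and 2.73 times after heat stress (2.33 to 3.21).

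Of the 7 genes, 6 had a mean of at least 5 RPM. At the 2-fold threshold, 1 of the 6, NCED1, was higher, where 3.91% of all models compared were, and 0 were lower, where 1.66% were. At a 1.5-fold threshold NCED1 was again the 1 higher gene, against 12.2% of all models. TAS14, Solyc04g071590 and Solyc04g071620 were then lower, where 6.36% of all models were. Solyc04g071590 and Solyc04g071620 both had fractional reads, and whether they share some was not tested, so they may not count as separate genes. Solyc04g071590 was under 5 RPM after heat stress and entered the comparison through its level in control leaves, as NCED1 did through its level after heat stress, so neither is support for a difference of the set from all models. No gene of the 6 passed a 4-fold threshold, which 0.772% of models passed on the higher side and 0.0799% on the lower. The median log2 ratio of the 6 was -0.59, with 2 above 0 and 4 below, and that of all models compared was 0.10, with 60.6% above 0. Over all 7 genes the median was -0.46. With 6 genes, 3 of them in 1 cluster, these counts are a description.

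Setting the median ratio of the libraries to 1 lowered every log2 ratio by 0.11 before the pseudocount. TAS14 then passed the 2-fold threshold on the lower side, and Solyc04g071620 came to -0.98. The direction of each of the 7 genes was the same under the 6 alternative pseudocounts, scalings and readouts that were tried. A pseudocount cannot change a direction. The scalings moved log2 ratios by at most 0.11, less than the ratio nearest to no difference, -0.32 for Solyc04g071610. For pseudocounts and scalings the unchanged directions are therefore no check of these differences. The other readout, the height of the highest peak, could have changed a direction. It comes from reads of the same libraries, so it is no separate check either.

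**Figure D3:**
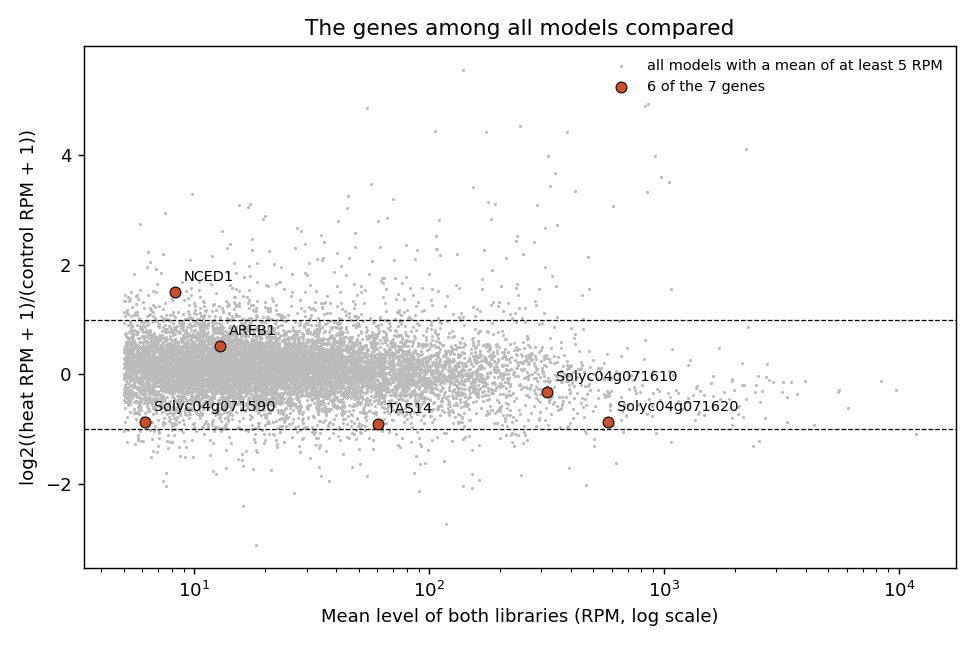
The 6 genes with a mean of at least 5 RPM (orange) among the 11271 models compared (grey); the horizontal axis is the mean of both libraries in RPM on a log axis, the vertical axis is the log2 ratio with 1 RPM added, and dashed lines mark 2-fold differences. NCED1 lies above the upper line at 1.51, AREB1 lies inside the grey mass at 0.52, and TAS14, Solyc04g071590 and Solyc04g071620 lie just above the lower line.

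A second readout of the files, how high the reads of a model pile up at their highest peak, was not used in picking the genes. It comes from reads of the same libraries, so ratios of peaks are no separate check of the ratios of reads. For 6 of the 7 genes the highest peak held between 21.2% and 34.1% of the reads of the gene in either library. Over 14051 models that had at least 20 reads in each library and whose peak did not exceed their reads, the median share was 27.4% in control leaves and 26.4% after heat stress. NCED1 had 34.1% in control leaves (20.5 to 49.9) and 33.5% after heat stress (26.6 to 41.0), and TAS14 had 26.6% (23.7 to 29.6) and 24.5% (21.1 to 28.2). The counting intervals of the libraries overlapped for each of the 7 genes. Solyc04g071590 stood apart, with 94.2% of its reads in 1 peak in control leaves (88.1 to 98.3) and 91.2% after heat stress (80.7 to 97.1). A share of at least 85% was found in 0.797% of models in control leaves and 0.697% after heat stress. The reads in that peak were fractional too, at 89.7 and 51.7 reads, and which other locations received the remaining parts was not tested. Solyc04g071620 and Solyc04g071600, a model among the ASR genes described below, also had fractional reads. Control reads were 95.1667 for Solyc04g071590, 88.6667 for Solyc04g071600 and 8609.17 for Solyc04g071620. Whether these models share reads was not tested, so the lower level of Solyc04g071590 is not shown to be separate from that of Solyc04g071620. Peak heights per 1000000 mapped reads gave a ratio of 3.27 for NCED1 (1.83 to 6.21) and of 0.488 for TAS14 (0.394 to 0.603). For AREB1 the peak ratio was 1.34 with an interval that includes 1 (0.817 to 2.23), from peaks of 28 and 45 reads.

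The 4 ASR genes lie on the same strand, and 1 listed model, Solyc04g071600.2, lies among them in identifier order without being one of the 7. It had 7.69 RPM in control leaves and 5.03 RPM after heat stress, a ratio of 0.654 (0.472 to 0.906), and its reads were also fractional. Whether it shares reads with the ASR genes was not tested, so its ratio may not be independent of theirs. It is counted among the neighbours below. With 5 more listed models on either side, the cluster had 11 neighbours, of which 6 had a mean of at least 5 RPM. Of these 6, 2 were higher and 4 lower after heat stress, with log2 ratios between -0.72 and 0.43, and 0 passed the 2-fold threshold in either direction. The most abundant neighbour, the third listed model after the cluster, went from 302.05 RPM in control leaves to 183 RPM after heat stress, a ratio of 0.606 (0.575 to 0.638). Its ratio lies between those of Solyc04g071620 and Solyc04g071610.

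**Figure D4:**
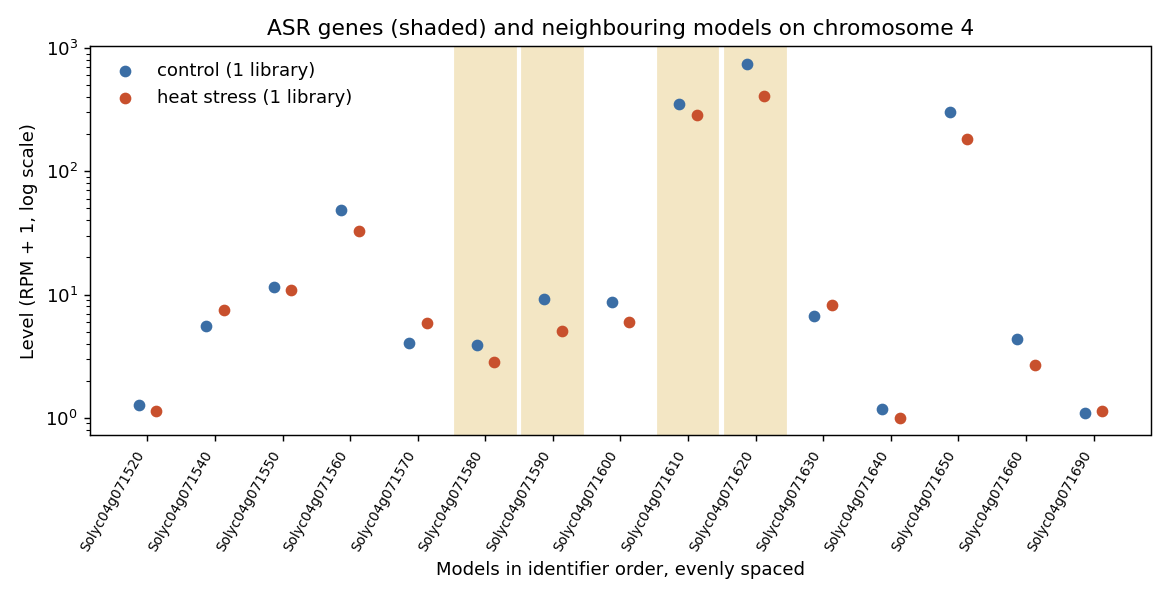
Levels (RPM + 1, log axis) of the 4 ASR genes, shaded, and of the 11 neighbouring models in identifier order, evenly spaced, in control leaves (blue) and the heat-stress library (orange), 1 library each. Solyc04g071610 and Solyc04g071620 have the highest levels of the stretch, and 1 neighbour to the right, Solyc04g071650, comes close to them at 302.05 and 183 RPM.

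Around the 3 single genes, the 5 listed models on either side were compared on the log2 scale with 1 RPM added, for neighbours with a mean of at least 5 RPM. Beside NCED1, 5 neighbours had such a mean, with log2 ratios between -0.79 and 0.89 against 1.51 for NCED1. Beside TAS14, 3 neighbours did, all higher after heat stress at 0.14 to 0.45 against -0.90 for TAS14. The listed model just before TAS14 fell under that mean, at 4.59 RPM in control leaves and 2.96 RPM after heat stress. It was lower after heat stress, as TAS14 was, with a ratio of 0.644 (0.418 to 0.987). Beside AREB1, 6 neighbours had such a mean, with a median of 0.31 and a highest value of 0.49, next to 0.52 for AREB1. Of its neighbours under that mean, those at 0.597 and 0.594 lay above AREB1, and those at 0.122 and -0.402 lay below it. At all 3 places 0 neighbours passed the 2-fold threshold.

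The models most like the extremes of the set were found by distance over the 2 libraries on the log2(RPM + 1) scale. The nearest to NCED1 was Solyc08g082210.2 on chromosome 8, at a distance of 0.0899, with 3.99 RPM in control leaves and 12.0 RPM after heat stress. Within a distance of 0.25 of NCED1 there were 6 models. The nearest to TAS14 was Solyc03g082620.2 on chromosome 3, at a distance of 0.0396, with 78.2 and 40.7 RPM, and 23 models lay within 0.25 of TAS14. Over 2 libraries such likeness says only that the levels were close.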

How the data were processed

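Both libraries were read from the deposited tables. Per the file headers, the authors deposited for each gene model an estimated count of reads, which is not whole where reads map to several places, with the count of all mapped reads and the height of the highest peak, a signal in reads. The deposited column headed TPM equalled reads per 1000000 mapped reads within 3.42e-08, so it is RPM. FastQC is named in the submitters' processing notes; for aligner, build, annotation and strand setting, the sources used here give nothing. Overlapping and antisense reads therefore cannot be told apart.

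A model missing from one table was set to 0 there. Ratios used log2(RPM + 1), a filter of a mean of 5 RPM and a 2-fold threshold. Intervals are exact Poisson for levels, conditional exact binomial for ratios and Clopper-Pearson for shares, at 95% on reads rounded to whole numbers. Reads were called whole within 0.000001. Quotients of ratios have conditional exact intervals. The calculations used Python 3.11.15, numpy 2.4.6, scipy 1.17.1 and pandas 2.3.3, and were tested on simulated libraries. A single control read equals 0.0867 RPM and a single heat-stress read 0.0722 RPM. The named models are the 7 genes, the model among the ASR genes, the nearest model to each extreme, and Solyc04g071650, named after its values were seen. The neighbours of the single genes and the quotients were also chosen after values were seen. The genes and lists were chosen with earlier results of these data known. Other genes of the abscisic acid pathway, promoter motifs, protein comparisons and leaf markers were not analysed here, for want of names or sequences that join to the identifiers.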

Additional observations from a re-analysis of the deposited data

How the results depend on the processing

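Depth limits NCED1, Solyc04g071580 and Solyc04g071590 most, which had 44, 33.0 and 95.2 control reads, and the spread between plants is unknown. The 42 log2 ratios of single genes under other pseudocounts, scalings and peak heights kept their sign, which a pseudocount cannot change and scalings this small could not. Peak heights could have changed it, but they come from reads of the same libraries. Of the 42, 37 moved by less than their counting interval and 5 by more. With a pseudocount of 5 RPM NCED1 was at 1.01 and 267 models were higher and 112 lower, against 441 and 187. With the median ratio scaling 1 gene (TAS14) was at least 2-fold lower and the ASR sum was at -0.78 against -0.67. The trimmed mean scaling gave 1 lower gene and -0.78 as well. These scalings moved the higher share of calls over all models from 70.2% to 55.7% and 56.0%. With highest peaks the filter removed NCED1 and AREB1, leaving 4 genes, all below 0 on the log2 scale. This gave 0 higher genes, a median of -0.89 against -0.59, and 212 higher and 105 lower models. A filter of 20 RPM removed NCED1, AREB1 and Solyc04g071590, leaving 3 genes, all below 0. This gave 0 higher genes, a median of -0.87, and 248 and 115 models. With whole-number reads only, 4 genes were left with a median of 0.10, of the opposite sign, and 116 models were lower. A 4-fold threshold left 0 higher genes and 87 and 9 models (90.6% higher), and a 1.5-fold threshold gave 3 lower genes and 1370 and 717 models. The ratio of RPM without a pseudocount, added after seeing the data, gave 1 lower gene, Solyc04g071590. The filters, thresholds and subsets change these counts by construction. No paired analysis was possible because control and heat stress have 1 library apiece.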
